A study of Mus musculus with 17 samples.

Results

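Astrocytes were taken as the nuclei that carried the authors' deposited astrocyte label and that their doublet call had not marked. There were 4475 such nuclei of 284074 in all, or of 236316 without doublets. A further 497 nuclei with the label were doublets by that call (10.0% of 4972) and were left out. All 17 mice carried the genotype hTfR KI HOM, a knock-in of the human transferrin receptor (TfR) on both alleles, so no group lacked it. They were labelled as females aged 2.3 months, and their posterior brain was sampled. In all, 4 groups were compared by single-nucleus RNA sequencing: Saline (n = 4), Malat1 ASO at 2 mg/kg (n = 4), anti-TfR:Malat1 at 50 mg/kg (n = 6) and OTV:Malat1 at 50 mg/kg (n = 3). Dosing was intravenous and weekly, 4 times within 24 days, and brains were collected 72 hours after the last of these. Per the design text, the dose of free antisense oligonucleotide (ASO) was matched to the ASO carried by the conjugates.

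Astrocytes are the glial cells that clear glutamate from synapses, buffer potassium and water, supply lipids and cover the outer face of brain capillaries with their endfeet. Malat1, a noncoding transcript of great abundance, is retained in the nucleus and gathers at nuclear speckles, so nuclear RNA holds much of it. An ASO of the RNase H kind pairs with its target RNA and lets RNase H cut it. OTV, an oligonucleotide transport vehicle, and anti-TfR, an antibody, both bind the transferrin receptor, which carries iron-loaded transferrin across the endothelial cells of brain capillaries, and both here carry an ASO against Malat1. The series set the 2 carriers side by side, and the question for astrocytes was how far Malat1 fell in cells that lie behind that barrier.

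The label was checked against 4 markers. Slc1a2, the main glial glutamate transporter, was at 5566 CPM (the usual scale of a gene's counts relative to all counts, here with Malat1 in the total) over the astrocytes and at 248 CPM over nuclei labelled neurons. Slc1a3, the second glutamate transporter, was at 1980 CPM, the gap junction gene Gja1 at 316 CPM and the water channel gene Aqp4 at 171 CPM, against 16.1, 1.09 and 1.05 CPM in neurons. Nuclei labelled vascular had 842 CPM of Slc1a3 and 115 CPM of Gja1, but 73.5 CPM of Slc1a2 and 2.14 CPM of Aqp4. Transcripts that led the astrocytes over the other labelled classes, leaving aside 198 nuclei labelled only glia, were Atp13a4, Etnppl, Acsbg1, the GABA transporter gene Slc6a11 (733 CPM against at most 11, and 104 CPM in those glia) and Slc7a10 (296 CPM against at most 4.28). Among the transcripts with the highest levels after Malat1 were Lsamp (15547 CPM), Gpc5 (9519 CPM) and Ntm (6561 CPM). These levels describe the labelled nuclei and were not tested.

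One deposited cluster held 4342 of the astrocytes (97.0%), and that cluster also held 1855 nuclei with other labels, 1139 of them vascular. A second cluster held 118 astrocyte-labelled nuclei with microglial markers, at 560 CPM for Csf1r and 2277 CPM for Inpp5d, and with only 193 CPM for Slc1a2. Saline held 25 of them, Malat1 ASO 27, anti-TfR:Malat1 44 and OTV:Malat1 22. Endothelial markers were near the limit of detection, with 7 of 8 below 5 CPM and Adgrl4 at 0, which allows up to 0.37 CPM. Summed over 8 neuronal markers, the level was 483 to 737 CPM in Saline animals and 700 to 796 CPM in OTV:Malat1 animals. The sum of 8 oligodendrocyte markers ran from 281 to 532 CPM in Saline and from 372 to 970 CPM in OTV:Malat1, and that of 8 microglial markers from 95.6 to 474 and from 144 to 261 CPM. Of the oligodendrocyte markers 5 had enough counts to be tested, and for OTV:Malat1 against Saline all 5 had log2 fold changes above 0 (median 0.70), while 2 markers of oligodendrocyte precursors had a median of -0.94. In that comparison 51.0% of all genes tested but Malat1 were above 0. None of these markers passed the threshold, and their part in results for other genes was not tested.

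Between 135 and 415 astrocytes were found in an animal, holding 242302 to 1024756 unique molecular identifiers (UMIs). The median nucleus had 1720 UMIs and 1087 genes. One library stood apart from its label: in Malat1 ASO 1 the astrocytes held 1 UMI of Xist, the RNA that coats the inactive X chromosome in females (1.45 CPM), against 1400 to 2179 CPM in the other 16 animals, and 4 Y-linked genes were at 0 UMIs in it. The Malat1 difference between the Malat1 ASO and Saline groups was -0.06 on the log2 scale with that animal and -0.12 without it. Of the astrocyte barcodes, 5 occurred in more than 1 library. Each animal belonged to 1 of 4 batches named in the deposited metadata, and no OTV:Malat1 animal was in batch 1.

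Malat1 fell in astrocytes after OTV:Malat1. Its share of astrocyte UMIs was 12.6, 9.39, 10.1 and 6.68% in the 4 Saline animals and 3.58, 3.34 and 3.20% in the 3 OTV:Malat1 animals. All 3 treated animals lay below every control, at 34.7% of the Saline mean (3.37% ± 0.19 against 9.71% ± 2.45, SD, n = 3 and 4). The log2 fold change was -1.63 (SE 0.17, adjusted p = 7.6e-07, edgeR quasi-likelihood test over all genes). In the exact two-sided permutation test of log2 CPM the difference was -1.49 with p = 0.0571, the smallest that 3 against 4 animals can give. Paired within the 3 batches that held both groups, the log2 difference was -1.39, -1.60 and -1.06.

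For anti-TfR:Malat1 the level lay between those groups. The lowest of its 6 animals had 5.31% of astrocyte UMIs in Malat1, the median was 6.20% and the highest 7.26%. In 5 of 6 animals the value was below every Saline animal, and the sixth lay above Saline 4 alone. The mean, 6.18% ± 0.73 (SD, n = 6), was 63.7% of the Saline mean. The exact two-sided permutation test gave a log2 difference of -0.62 (p = 0.0190, adjusted p = 0.0476 over 6 comparisons), while edgeR gave -0.70 (SE 0.13, adjusted p = 0.0969 over all genes), which missed the threshold of 0.05. Which side of the edgeR threshold it fell on changed with the animals kept and with processing settings given below. The value was -0.85 without Saline 4 (edgeR adjusted p = 0.00075) and -0.75 without anti-TfR:Malat1 3 (edgeR adjusted p = 0.0488). It was -0.52 without Saline 1 (edgeR adjusted p = 0.999). Without Malat1 ASO 4, which is not in this comparison, it stayed at -0.70 (edgeR adjusted p = 0.0114). Each edgeR adjusted p depends on all genes tested and on the spread estimated over all 4 groups. With batch as a term the fold change was -0.63 (adjusted p = 0.0154), and within batches 1 to 4 the log2 difference was -1.25, -0.52, -0.55 and -0.23.

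Free Malat1 ASO left astrocyte Malat1 at 10.5, 8.89, 11.1 and 6.82% of UMIs, a range that overlapped that of Saline. The mean was 9.31% ± 1.90 (SD, n = 4), 95.9% of the Saline mean. The fold change was -0.06 on the log2 scale (SE 0.15, 95% interval -0.34 to 0.23, edgeR adjusted p = 1.00). Changes within that interval are not excluded by these animals. The edgeR SE behind it also draws on the spread of other genes. The SD of log2 Malat1 CPM between animals was 0.38 in Saline and 0.31 in Malat1 ASO (n = 4 each). Within batches 1 to 4, which held 1 animal of each group, the log2 difference was -0.27, -0.08, 0.13 and 0.03. The interval and the SDs leave this pairing by batch out.

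Set directly against each other, the carriers differed. All 3 OTV:Malat1 animals were below all 6 anti-TfR:Malat1 animals, with a log2 fold change of -0.93 (SE 0.15, edgeR adjusted p = 0.0093) and an exact two-sided permutation p of 0.0238 (adjusted p = 0.0476), the smallest raw p for 3 against 6. Within batches 2, 3 and 4 the log2 difference was -0.87, -1.05 and -0.83. Leaving out OTV:Malat1 2 or OTV:Malat1 3 kept the fold change at -0.92 but moved the edgeR adjusted p to 0.0866 and 0.117. Against Malat1 ASO the fold change was -1.57 for OTV:Malat1 (edgeR adjusted p = 1.6e-06) and -0.64 for anti-TfR:Malat1 (edgeR adjusted p = 0.313), and 5 of 6 anti-TfR:Malat1 animals lay below every Malat1 ASO animal (exact two-sided permutation, adjusted p = 0.0476). That last edgeR value passed without Saline 1 (-0.65, edgeR adjusted p = 0.0417), Saline 4 (-0.64, edgeR adjusted p = 0.0234) or Malat1 ASO 4 (-0.78, edgeR adjusted p = 0.0060), but not without Malat1 ASO 1 (-0.58, edgeR adjusted p = 1.00). In the exact permutation test the difference without Malat1 ASO 1 was -0.51 (p = 0.0476). The edgeR adjusted p-values cover all genes tested, so one near 1 does not mean that Malat1 by itself showed no difference. Comparisons with one control group share its animals.

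**Figure D1:**
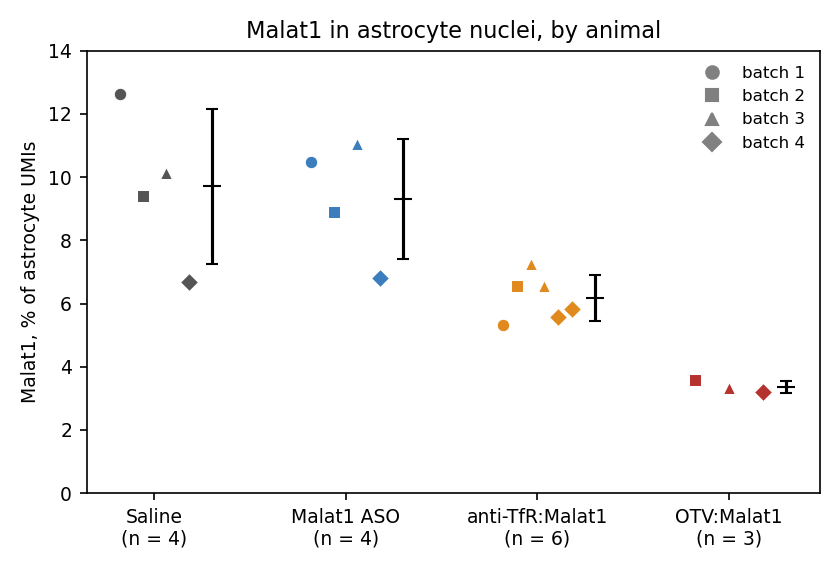
Malat1 as a percent of astrocyte UMIs, 1 point per animal, by group, with the deposited batch as the symbol and the mean ± SD as the black bar. The OTV:Malat1 animals sit between 3.20 and 3.58%, below all others, and the lowest Saline and Malat1 ASO animals, 6.68 and 6.82%, are both in batch 4.

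Counting error was small beside the spread between animals. The 95% Wilson interval of an animal's Malat1 share was at most 0.11 percentage points to either side, and covers counting error only. Nuclei with no UMI of 8 neuronal markers had Malat1 at 9.83% ± 2.42 of UMIs in Saline, 6.00% ± 0.53 after anti-TfR:Malat1 and 3.34% ± 0.24 after OTV:Malat1 (SD, n = 4, 6 and 3). With oligodendrocyte and microglial markers also at 0 UMIs, OTV:Malat1 stood at 31.5% and anti-TfR:Malat1 at 58.3% of the Saline mean. Malat1 was thus as low, relative to Saline, among nuclei with none of these markers, which numbered as few as 15 in an animal. In the largest cluster alone, the 2 groups were at 34.4% and 63.4%.

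Cell classes differed in their mean Malat1 relative to Saline after each carrier. After anti-TfR:Malat1, astrocyte Malat1 (63.7% of the Saline mean) was close to the level in oligodendrocytes (67.8%), the myelin-forming cells, and lower than in neurons (91.1%) and in microglia, the resident immune cells (88.4%). The log2 astrocyte-to-neuron ratio of Malat1 was lower by 0.50 than in Saline, with all 6 animals below all 4 (exact two-sided permutation p = 0.0095, adjusted p = 0.0429 over 18 comparisons), and the astrocyte-to-microglia ratio differed by -0.46 (same p and adjusted p in the exact permutation test, again 6 of 6 animals). For the astrocyte-to-oligodendrocyte ratio the difference was -0.07 (exact permutation p = 0.390), with 2 of 6 animals below all Saline animals.

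After OTV:Malat1, astrocytes (34.7% of the Saline mean) lay between oligodendrocytes (15.4%) and the pair of neurons (68.4%) and microglia (67.2%). Oligodendrocyte Malat1 was 1.81, 1.54 and 1.40% of UMIs in the 3 animals, against 3.58, 3.34 and 3.20% in their astrocytes. The astrocyte-to-oligodendrocyte ratio was higher by 1.2 on the log2 scale than in Saline and by 1.27 than in anti-TfR:Malat1, with all 3 animals above every animal of either group (exact permutation p = 0.0571 and 0.0238, the smallest each can give, adjusted p = 0.0791 and 0.0612). The astrocyte-to-neuron ratio differed from Saline by -0.96 and the astrocyte-to-microglia ratio by -0.93, both at the smallest p of 0.0571 in the exact permutation test. Each ratio was 1 value per animal, and permutation within batches can give no exact p below 0.0556 in this design.

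**Figure D2:**
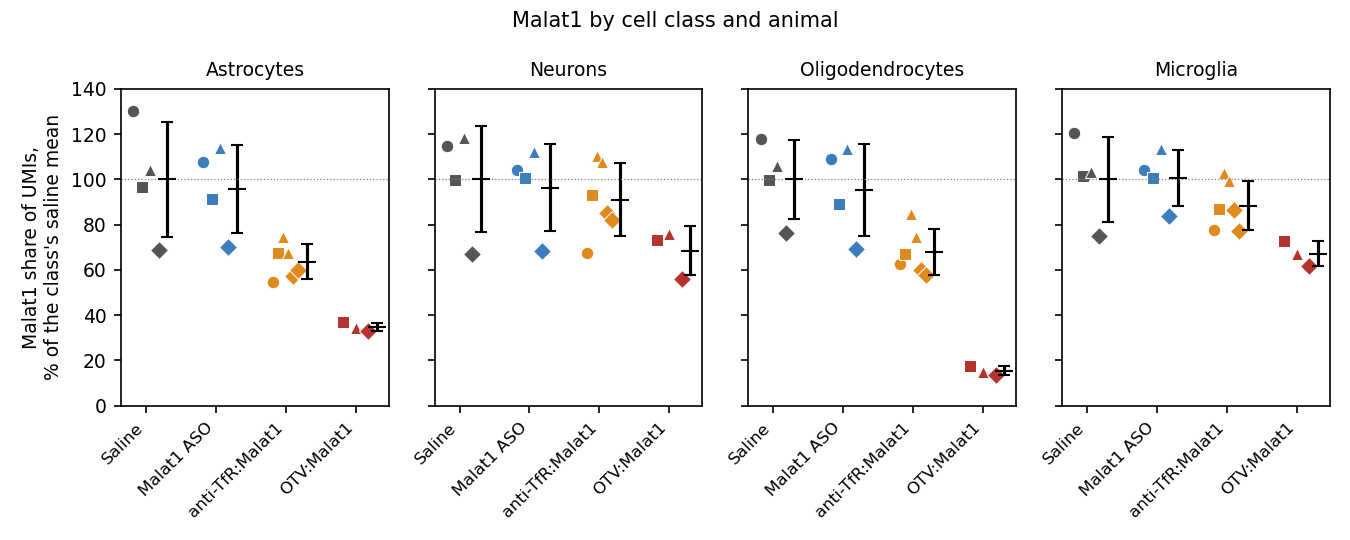
Malat1 share of UMIs in each class as a percent of that class's Saline mean, 1 point per animal, symbols by batch as in the plot of astrocytes by animal, with the mean ± SD as the black bar. Under OTV:Malat1 the means run from 15.4% in oligodendrocytes through 34.7% in astrocytes to 67.2% in microglia and 68.4% in neurons.

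Malat1 was next followed from nucleus to nucleus. Each astrocyte was thinned to 500 UMIs, so that depth was equal, and every astrocyte had at least that many. The median nucleus then held 64, 48, 50 and 34 Malat1 UMIs in the Saline animals and 17, 14 and 15 in the OTV:Malat1 animals. For anti-TfR:Malat1 the animals' medians ran from 27 to 35. Low nuclei were defined as those with fewer than 27 Malat1 UMIs, a bound set at the 10th percentile in Saline with the 4 animals weighted equally. Low nuclei made up 79.6, 82.4 and 86.6% of astrocytes after OTV:Malat1, and 23.1% (lowest), 38.4% (median) and 49.6% (highest) after anti-TfR:Malat1. In Saline the share was 0.24, 4.44, 2.48 and 29.7%, and in Malat1 ASO 1.47, 5.14, 1.08 and 23.3%.

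All OTV:Malat1 animals were above every other animal in this share. The gap to anti-TfR:Malat1 was 44.5 percentage points (exact two-sided permutation p = 0.0238, adjusted p = 0.0476 over 6 comparisons) and that of anti-TfR:Malat1 to Saline 29.2 points (p = 0.0190 by exact permutation, adjusted p = 0.0476), with 5 of 6 animals above every Saline animal. With low nuclei defined at the 25th percentile of Saline (fewer than 37 UMIs), the gap between the conjugates was 27.3 points, and all OTV:Malat1 animals were still the higher (exact permutation p = 0.0238). The 90th percentile nucleus of OTV:Malat1 animals held 31.8 ± 1.3 Malat1 UMIs (SD, n = 3), close to the 10th percentile nucleus of Saline animals at 32.9 ± 10.7 (SD, n = 4). Without thinning, 17.9, 25.3 and 30.1% of OTV:Malat1 astrocytes held fewer than 27 Malat1 UMIs, against at most 1.75% in Saline.

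**Figure D3:**
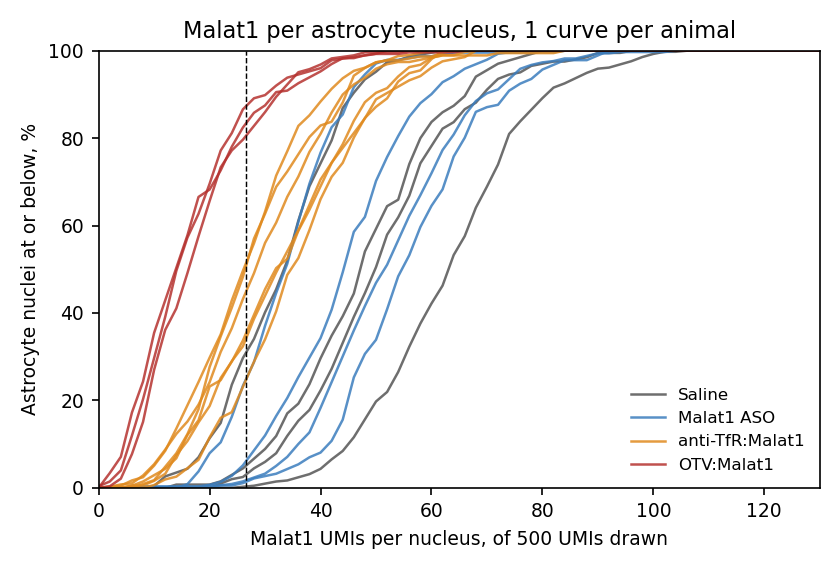
Cumulative percent of astrocytes against Malat1 UMIs per nucleus among 500 UMIs drawn, 1 curve per animal, coloured by group, with a dashed line at the bound of low nuclei (fewer than 27). The 3 OTV:Malat1 curves cross that line at 79.6 to 86.6% and the anti-TfR:Malat1 curves at 23.1 to 49.6%.

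Relative to each animal's mean, the spread of Malat1 between its astrocytes was wider after both conjugates. It was measured as the coefficient of variation between nuclei thinned to 500 UMIs, after the variance that counting gives had been subtracted. The values were 19.4, 23.3, 23.9 and 26.2% in Saline and 22.2, 21.8, 19.7 and 22.5% in Malat1 ASO. After anti-TfR:Malat1 they ran from 29.4% (lowest) through 36.0% (median) to 38.2% (highest), and after OTV:Malat1 they were 49.6, 60.6 and 55.2%. No value of a conjugate group overlapped a Saline or Malat1 ASO value, or one of the other conjugate.

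Against Saline, the coefficient was 12.2 points higher after anti-TfR:Malat1 (6 of 6 animals above all controls, exact two-sided permutation p = 0.0095, adjusted p = 0.0286 over 6 comparisons). OTV:Malat1 was 19.8 points above anti-TfR:Malat1 (exact permutation p = 0.0238, adjusted p = 0.0476) and 31.9 points above Saline (exact permutation p = 0.0571, the smallest it can give). This measure is relative to each animal's mean, which was lower in those groups. It was chosen after the data had been seen. In UMIs the spread was not wider. The 10th and 90th percentile nuclei were on average at 32.85 and 65.65 UMIs in Saline. They were at 15.8 and 47.3 after anti-TfR:Malat1 and at 6 and 31.8 after OTV:Malat1.

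Regional identity was one way in which the astrocytes differed. Nuclei were split by whether they held more UMIs of telencephalic markers (such as Lhx2, Mfge8, Emx2 and Emx1, genes of forebrain astrocytes) or of markers of astrocytes elsewhere in the brain (Agt, Slc6a9, Otx2 and 4 Irx genes). The first set had 1009 nuclei and the second 987, and 2479 held none or equal numbers. Genes outside the split differed too: Slc1a2 was at 7769 CPM in the telencephalic set and 3408 CPM in the other, and Slc6a11 at 358 and 1269 CPM, at median depths of 1939 and 1848 UMIs. These levels are pooled over animals and were not tested.

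In OTV:Malat1 animals, Malat1 was 4.12, 3.74 and 3.61% of UMIs in the telencephalic set and 2.87, 2.36 and 2.83% in the other set, or 40.1% and 28.8% of the Saline mean of each. For anti-TfR:Malat1 the median was 6.60% in the telencephalic set (range 5.92 to 7.34%) and 5.07% in the other (range 4.35 to 6.87%). Its means, 6.62% ± 0.61 and 5.26% ± 0.85 (SD, n = 6), were 69.5% and 56.5% of the Saline means. In Saline the 2 sets were alike in level, at 9.52% ± 2.44 and 9.32% ± 2.25 (SD, n = 4). Within an animal, the log2 difference of the non-telencephalic from the telencephalic set was thus -0.03 in Saline, -0.34 after anti-TfR:Malat1 and -0.51 after OTV:Malat1. The anti-TfR:Malat1 difference from Saline was -0.31 (exact two-sided permutation p = 0.0190, adjusted p = 0.0571 over 6 comparisons) and the OTV:Malat1 one -0.49 (exact permutation p = 0.0571, the smallest it can give), with all 3 OTV:Malat1 animals and 5 of 6 anti-TfR:Malat1 animals below every Saline animal. Split by Mfge8 against Agt alone, they were -0.11 (exact permutation p = 0.333) and -0.33, so the anti-TfR:Malat1 difference depended on the marker list.

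**Figure D4:**
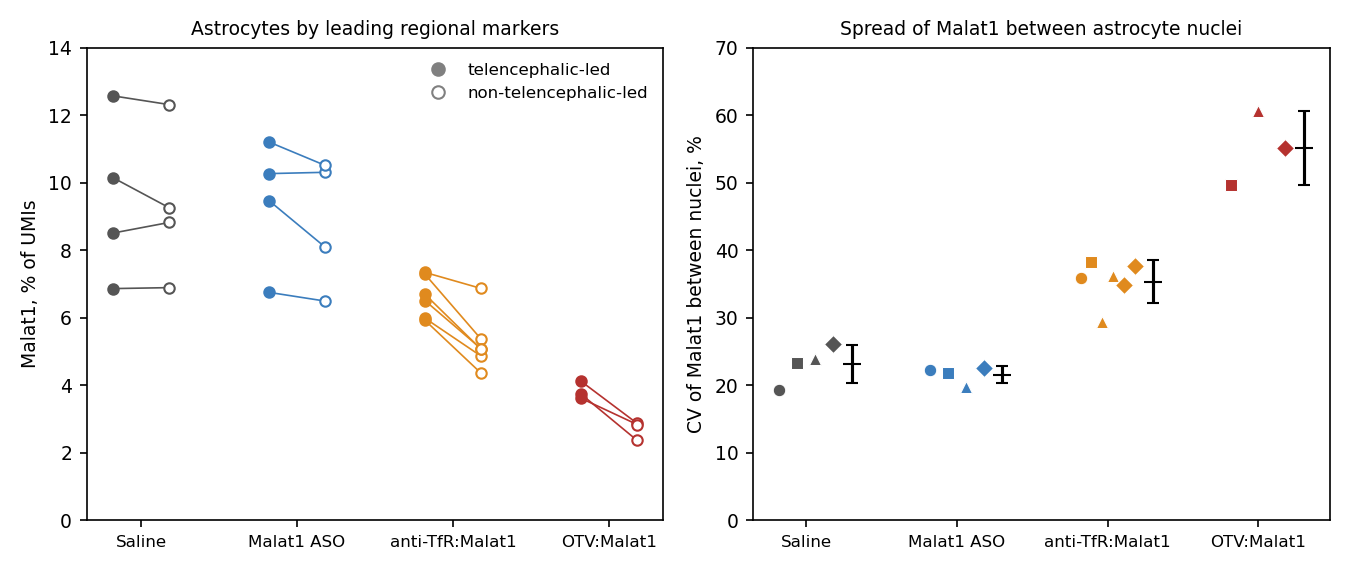
Left, Malat1 as a percent of UMIs in telencephalic-led (filled) and non-telencephalic-led (open) astrocytes, with a line joining the 2 sets of an animal. Right, the coefficient of variation of Malat1 between astrocytes of an animal, symbols by batch as in the plot of astrocytes by animal and the black bar the mean ± SD. The lines run down in all 3 OTV:Malat1 and all 6 anti-TfR:Malat1 animals, in 3 of 4 Malat1 ASO and in 2 of 4 Saline animals. The OTV:Malat1 coefficients, 49.6 to 60.6%, lie above those of all other animals.

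No difference in the share of astrocytes passed a test. Their share of nuclei was 3.18, 0.94, 1.41 and 1.74% in Saline and 1.99, 1.95 and 2.03% in OTV:Malat1, and the group means ran from 1.82% (Saline) and 1.92% (anti-TfR:Malat1) to 1.97% (Malat1 ASO) and 1.99% (OTV:Malat1). The ranges overlapped, and no comparison fell under a p of 0.80 in the exact two-sided permutation test over all animals. For OTV:Malat1 against Saline the difference was 0.17 percentage points over all animals. Within the 3 batches that held both groups the treated animal was the higher each time, by 0.63 points on average (exact permutation p = 0.25, the smallest that these batches can give). Without Saline 1, the only Saline animal of batch 1, the difference was likewise 0.63 points, with all 3 OTV:Malat1 animals above the other Saline animals (exact permutation p = 0.1, the smallest it can give). Shares of nuclei depend on every other class in the suspension.

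Beyond Malat1, no gene passed the threshold in astrocytes once genes of low counts had been filtered out. Of 7734 other genes tested, 0% were called in each of the 6 comparisons (edgeR, adjusted p of 0.05), and DESeq2 on the same genes also called 0. At an unadjusted p of 0.05, edgeR counted 280 genes for OTV:Malat1 against Saline, 211 for anti-TfR:Malat1 against Saline, 179 for Malat1 ASO against Saline and 313 between the conjugates, where DESeq2 counted 139, 112, 74 and 153. For OTV:Malat1 and anti-TfR:Malat1 against Malat1 ASO the counts were 322 and 194 by edgeR and 174 and 87 by DESeq2. As shares of the 7734 genes, the edgeR counts were 3.62, 2.73, 2.31, 4.05, 4.16 and 2.51%, in the order given. Each is below the share that an unadjusted p of 0.05 gives by chance with no change. In counts simulated from these libraries for OTV:Malat1 against Saline (7469 genes), the edgeR procedure called 19% of genes changed by 1.5-fold, 46.2% by 2-fold and 92.3% by 4-fold. Of 13 genes changed by 1.5-fold with a mean of at least 50 UMIs, it called 53.8%. It also called 4 unchanged genes. Many genes were changed at once in those counts, which eases the adjusted threshold. The shares called may thus overstate what is found where few genes change. Small changes were often below what these libraries can show, most of all in weakly read genes.

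Genes of the astrocyte's own work gave no call. Of 10 genes of glutamate and GABA handling tested, 0 passed for OTV:Malat1 against Saline, with a median log2 fold change of 0.0046 (range -0.21 to 0.22) against 0.0062 over all other genes. Slc1a2 was at 5326 ± 133 CPM in Saline and 5938 ± 995 CPM in OTV:Malat1 (SD, n = 4 and 3), a log2 fold change of 0.06 with a 95% interval of -0.16 to 0.28. Slc1a3 had a fold change of 0.11 (-0.14 to 0.37). Among 10 genes of potassium, water and gap junctions, again 0 passed, with a median of -0.014, and Slc4a4, the sodium bicarbonate cotransporter gene, had -0.06 (-0.28 to 0.16). Of 15 genes of signalling and adhesion and 15 of transcription and Notch, 0 passed, and the glypican gene Gpc5 and the transcription factor gene Zbtb20 had log2 fold changes of -0.07 and 0.0087. Sox2, a glial and progenitor transcription factor, had the highest value of these at 0.72 (SE 0.27, edgeR adjusted p = 1.00). Those intervals hold for log2 fold changes of OTV:Malat1 from Saline.

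Lipid genes gave no call either. The 9 genes of lipid carriers and transport had a median log2 fold change of -0.10 for OTV:Malat1 and -0.11 for anti-TfR:Malat1, and the 15 of cholesterol synthesis, which astrocytes supply to neurons, -0.16 and -0.12, with 4 of 15 above 0 in each. Malat1 ASO against Saline gave -0.03 for the lipid carriers and -0.17 for cholesterol synthesis, again with 4 of 15 above 0. The share above 0 over all genes but Malat1 was 51.0% for OTV:Malat1, 50.3% for anti-TfR:Malat1 and 50.5% for Malat1 ASO. Apoe, the main lipid carrier of astrocytes, was at 1300 ± 420 CPM in Saline and 1317 ± 338 CPM in OTV:Malat1 (SD, n = 4 and 3).

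Genes of reaction and stress were mostly too weak to test. Of 25 genes of reactive astrocytes in the files, 3 had enough counts, and Gfap, the intermediate filament gene that rises in reactive astrocytes, had a mean of 43.7 ± 21.3 CPM for Saline, 27.5 ± 4.0 for Malat1 ASO, 40.4 ± 21.8 after anti-TfR:Malat1 and 30.0 ± 6.6 after OTV:Malat1 (SD, n = 4, 4, 6 and 3). For OTV:Malat1 its log2 fold change was -0.64 (95% interval -1.39 to 0.12). Of 19 interferon response genes, 3 were tested and 0 passed, with Rtp4 at 0.82 (-0.02 to 1.66) and Stat2 at -0.19 (-0.85 to 0.48). Among 9 heat shock and unfolded protein genes, 8 of 9 were above 0 for OTV:Malat1 (median 0.35) and 4 of 9 for anti-TfR:Malat1 (median -0.011), and 0 passed in either. For Malat1 ASO against Saline, 7 of 9 were above 0 (median 0.07). Of all genes tested but Malat1, 51.0% were above 0 for OTV:Malat1, 50.3% for anti-TfR:Malat1 and 50.5% for Malat1 ASO against Saline. The list counts were not tested against these shares. The largest value for OTV:Malat1 was that of Herpud1, a gene of the endoplasmic reticulum stress response, at 0.72 (SE 0.33, edgeR adjusted p = 1.00). Of 15 immediate early genes 3 were tested, and Jun had 0.92 for OTV:Malat1 (SE 0.37, edgeR adjusted p = 1.00).

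RNAs and proteins that work beside Malat1 were also described. Malat1 lies on chromosome 19 at 5795690 to 5802672 (minus strand, GRCm38, GENCODE lincRNA), and its neighbour Neat1, the RNA scaffold of paraspeckles, at 5824708 to 5845478 on the same strand. Neat1 was at 189, 112, 225 and 149 CPM in Saline and 245, 216 and 209 CPM in OTV:Malat1 with Malat1 left out of the total, a scale chosen after seeing the data. The ranges overlapped, with 2 of 3 treated animals below the highest Saline animal. With Malat1 in the total, as for the other levels given here, its lower share alone sets the CPM of every other gene 7.02% higher after OTV:Malat1 than in Saline and 3.91% higher after anti-TfR:Malat1. The log2 fold change of Neat1 was 0.38 for OTV:Malat1 (SE 0.21, 95% interval -0.02 to 0.78, edgeR adjusted p = 1.00), 0.18 for anti-TfR:Malat1 (SE 0.18) and 0.24 for Malat1 ASO (SE 0.19). Of 18 genes near Malat1, 2 were tested, Neat1 being 1 of them. Among 10 nuclear long noncoding RNAs tested, Neat1 included, 0 passed (median -0.17 for OTV:Malat1), the lowest being 2610307P16Rik at -0.88 (SE 0.32, edgeR adjusted p = 1.00). Of 17 paraspeckle and speckle protein genes 0 passed (median 0.0096), with the speckle core genes Son at -0.07 and Srrm2 at 0.045.

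Receptor and uptake genes showed the same picture. Tfrc, the mouse transferrin receptor gene, had 132 UMIs over all astrocytes (16.3 CPM), against 23.5 CPM in neurons and 43.5 CPM in vascular nuclei. It was at 17.5 ± 7.7 CPM in Saline and 16.7 ± 5.3 CPM in OTV:Malat1 (SD, n = 4 and 3), too few counts to be tested, and how RNA of the humanised allele is counted against the mouse gene was not tested. Of 7 other genes of iron handling tested and 18 of endocytosis and lysosome, 0 passed. In the latter list 14 of 18 were above 0 for OTV:Malat1 (median 0.085) and for anti-TfR:Malat1 (median 0.088), and 9 of 18 for Malat1 ASO (median 0.0031). Over all genes but Malat1 the shares above 0 were 51.0, 50.3 and 50.5%. These counts were not tested. The ferritin gene Fth1 had a log2 fold change of 0.27 for OTV:Malat1 (95% interval -0.27 to 0.82), and the endocytic receptor gene Lrp1, the lowest of that list, -0.36 for anti-TfR:Malat1 (SE 0.16, edgeR adjusted p = 1.00).

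The genes with the smallest p values, none past the threshold, are given as values only. For OTV:Malat1 against Saline, Csrnp3, a nuclear factor gene, was at 54.6, 60.4, 53.1 and 52.9 CPM in Saline and 24.8, 25.6 and 20.2 CPM in OTV:Malat1. These ranges did not overlap, which is likely for a gene picked by its small p. How many of all genes had ranges apart was not counted. The log2 fold change was -1.31 (SE 0.28, edgeR adjusted p = 0.250). The other groups also had animals below the lowest Saline animal: 3 of 4 for Malat1 ASO (37.7, 38.5, 30.0 and 65.2 CPM, log2 fold change -0.40) and 5 of 6 for anti-TfR:Malat1 (24.8 to 53.01 CPM, -0.50). Next were Ldb2 at -0.74 and Prdm10 at -0.94, and on the other side 1110032A03Rik at 1.29, Zfand5 at 0.74 and Uqcrc2, a subunit gene of respiratory complex III, at 0.70 (edgeR adjusted p = 1.00 for each). Between the conjugates, Ldb2 had the smallest p, with a log2 fold change of -0.90 (SE 0.20, edgeR adjusted p = 0.479). Over the 17 animals, the genes whose log2 CPM followed Malat1 most closely among 1900 compared were A330023F24Rik (Pearson r = 0.48), Tlk1 (0.46) and Gpr37l1 (0.46). These animals share groups and batches, so the values are a description.

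**Figure D5:**
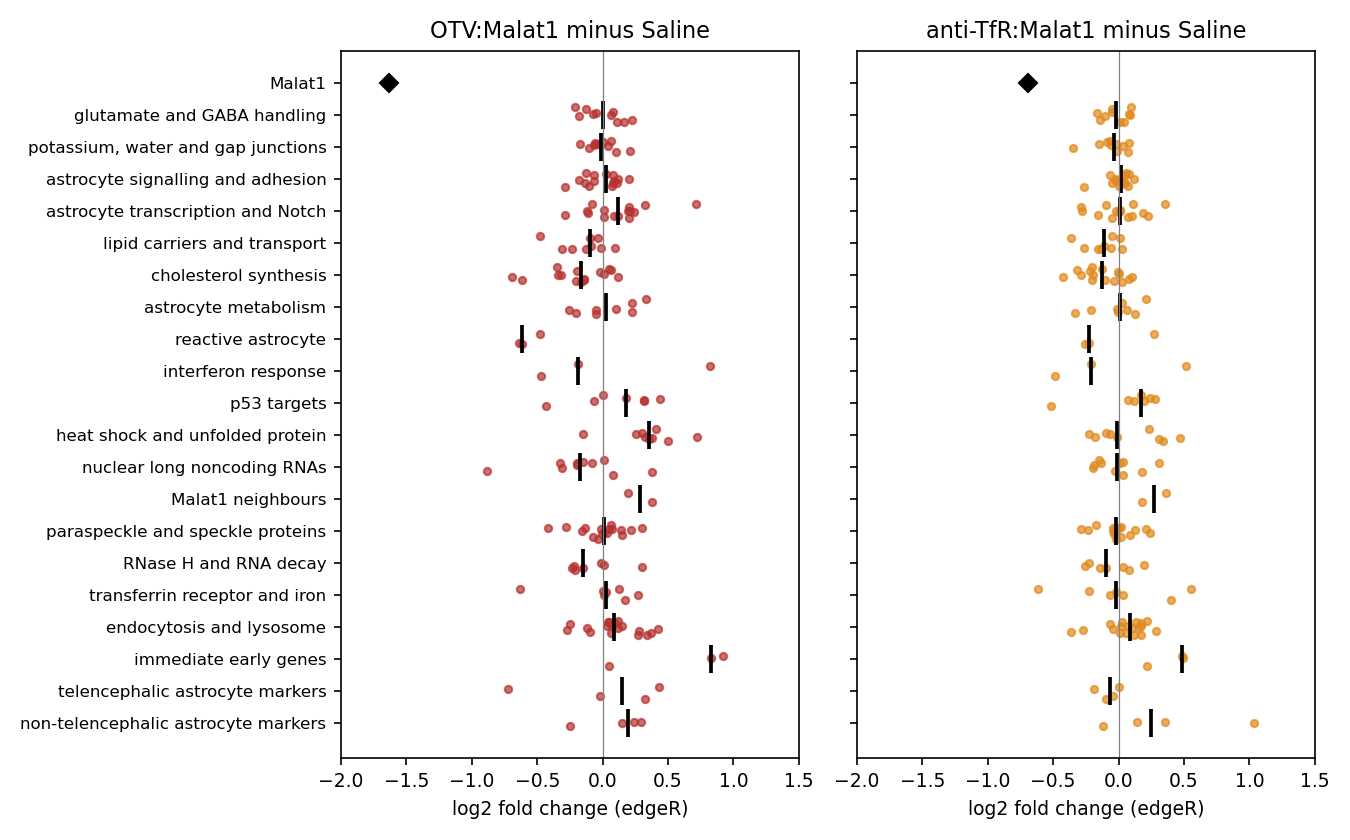
Log2 fold changes in astrocytes (edgeR) of the tested members of 20 gene lists, 1 point per gene, for OTV:Malat1 (left) and anti-TfR:Malat1 (right) against Saline, with the list's median as a black line and Malat1 as a diamond. Malat1, at -1.63 and -0.70, lies below every listed gene in both comparisons, and no listed gene passed the threshold.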

How the data were processed

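The authors deposited unique molecular identifier counts per gene and nucleus, with metadata giving cell labels, clusters, doublet calls, batches and a label score that is a fraction from 0 to 1. The submitters' processing notes name Cell Ranger 6.0.1, Seurat 4 and the mm10 build. A further 11 metadata columns were not used. The members and gene lists were chosen with earlier results of these data known.

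Counts of the astrocytes were summed per animal and tested with edgeR 4.0.16 (quasi-likelihood, filterByExpr, TMM, all 4 groups in 1 fit, Benjamini-Hochberg adjustment over all genes, threshold 0.05), with DESeq2 1.42.0 as an alternative, in R 4.3.3. The procedure was tested on simulated data. Single values per animal, as log2(CPM + 1) for levels, were compared with exact two-sided permutation tests, doubling the smaller tail. These listed every division of the animals (Python 3.11.15, numpy 2.4.6). Nuclei were thinned to 500 UMIs with a fixed seed. Regional sets needed 10 nuclei in an animal. No further doublet caller was run.

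The genes named were Malat1, Neat1 and Tfrc, the 3 with the smallest p in each direction where fewer than 3 passed, the 3 highest of each list in Saline, and the 3 most like Malat1. Others, such as Sox2, Herpud1 and 2610307P16Rik, were chosen after their values were seen. Each sample was treated as 1 animal. Exact permutation p-values rest on the values of these samples alone. The SEs, intervals and p-values of edgeR also draw on the spread of other genes. They can thus be smaller than a gene's own spread between animals would give. Some genes under this rule are not reported here.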

Additional observations from a re-analysis of the deposited data

Results flagged for a closer look

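The log2 astrocyte-to-neuron ratio of Malat1 after anti-TfR:Malat1 differed by -0.50 from Saline and by -0.50 from Malat1 ASO, which means that the effect differed between the 2 cell classes (exact two-sided permutation p = 0.0095 and adjusted p = 0.0429 for both, 6 of 6 animals below all controls). The astrocyte-to-microglia ratio differed by -0.46 from Saline and by -0.39 from Malat1 ASO in the same test (exact permutation p = 0.0095, adjusted p = 0.0429, 6 of 6 animals). The ratios against both control groups share the treated animals.

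Some animals lay far from the others of their group. Of astrocytes in Saline 4, 29.7% were low in Malat1, against 0.24 to 4.44% in the other Saline animals, and Malat1 ASO 4, of the same batch, had 23.3%. In Malat1 ASO 2 the log2 astrocyte-to-neuron ratio was 0.47, against 0.63 to 0.65 in the others of its group. Xist was at 1.45 CPM in Malat1 ASO 1 and at 1901 to 1914 CPM in the other 3 of that group, and at 1400 CPM in anti-TfR:Malat1 1 against 1918 to 2101 CPM.

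Among single genes, anti-TfR:Malat1 1 had Lrp1 at 276 CPM (others 144 to 193). Meg3 was at 459 CPM in anti-TfR:Malat1 5 (others 296 to 343) and Ifi27 at 41.3 CPM in anti-TfR:Malat1 3 (others 13.3 to 18.7). Saline 1 had Rtp4 at 12.7 CPM (others 22.3 to 23.2) and Lrp1 at 248 CPM (others 230.2 to 232), and Saline 2 had Srrm2 at 468 CPM (others 630.4 to 635). These 8 values, Xist included, came from 111 groups of animals examined over 37 genes, and chance sets apart about 1 in 20 groups.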

How the results depend on the processing

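Of 2132 values of 111 results under alternatives, 2077 were counted as unchanged. Many of these belong to genes far from the threshold or to exact tests already at their smallest p. The count is thus no measure of firmness. Some exact p-values also rose past 0.05, where fewer animals raise the smallest p possible, and were still counted. For the Malat1 level between the conjugates, p ran from 0.0238 to 0.111 in the exact permutation test over 17 alternatives, all counted as unchanged. In edgeR, Malat1 for OTV:Malat1 against Saline kept its direction and its side of the threshold in all 28 alternatives (log2 fold change -1.79 to -1.46). Animals with the same replicate number had a mean correlation of deviations of r = 0.083 (range -0.25 to 0.38 over 21 pairs), those of the same batch 0.155 (27 pairs) and those of different batches -0.053 (79 pairs). Of 17 animals, 8 correlated best with an animal of their own number, a hint of shared deviation by number or batch. Since not every same-number pair was positive, the number was not taken as pairing the animals. With the replicate number as a block, the Malat1 fold change was -1.71 for OTV:Malat1 against Saline, -1.12 between the conjugates and -0.59 for anti-TfR:Malat1 against Saline (edgeR adjusted p = 0.185), and no call changed.

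Anti-TfR:Malat1 against Saline passed the edgeR threshold with no low-count filter (-0.69, adjusted p = 0.0015), with only those 2 groups (-0.69, 0.0433), with batch as a block (-0.63, 0.0154), in the largest cluster (-0.70, 0.0322), in nuclei of 1000 or more UMIs (-0.68, 0.0415) and at a label score of 0.9 or more (-0.73, 0.0078). Against Malat1 ASO it passed with no filter (-0.65, 0.0026) and at that score (-0.67, 0.0340). Leaving out 1 animal at a time gave ranges of -0.85 to -0.52 for anti-TfR:Malat1 against Saline, -0.20 to 0.13 for Malat1 ASO against Saline (above 0 without Saline 1, 0.13, or Malat1 ASO 4, 0.086), -0.9997 to -0.89 between the conjugates and -0.78 to -0.52 for anti-TfR:Malat1 against Malat1 ASO. For telencephalic Malat1 after anti-TfR:Malat1 the ranges were -0.64 to -0.35 against Saline and -0.64 to -0.40 against Malat1 ASO (exact permutation p up to 0.0714), and for its astrocyte-to-oligodendrocyte difference from Malat1 ASO -0.13 to -0.076, the lowest without anti-TfR:Malat1 6. The astrocyte share of nuclei changed sign in several, from -0.12 (without Saline 2) to 0.63 points (without Saline 1) for OTV:Malat1 against Saline, -0.19 to 0.56 for anti-TfR:Malat1 against Saline, -0.10 to 0.37 between the conjugates and -0.34 to 0.17 for anti-TfR:Malat1 against Malat1 ASO. With no filter on low counts, edgeR called 1, 1, 2, 3, 3 and 5 other genes in the 6 comparisons. Against Saline they were Dscam for both conjugates, and Pde10a and Gm47283 for Malat1 ASO. Between the conjugates they were Col25a1, Ldb2 and Cmss1. Against Malat1 ASO they were Slit2, Sfta3-ps and AC149090.1 for OTV:Malat1, and those 3 with Col25a1 and Bnc2 for anti-TfR:Malat1. All were named after their values were seen. Not all were weakly read: their totals over the astrocytes ran from 47 UMIs (Bnc2) to 2160 UMIs (AC149090.1). Between the conjugates, Ldb2 (1063 UMIs) had an edgeR adjusted p of 0.479 with the filter and 0.0147 without it.

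Split by Mfge8 against Agt alone, the regional difference of OTV:Malat1 was -0.33 from Saline and -0.23 from Malat1 ASO, that of anti-TfR:Malat1 -0.11 and -0.0083, and telencephalic Malat1 in Malat1 ASO against Saline turned to 0.027. With doublets kept, the astrocyte-to-oligodendrocyte difference of OTV:Malat1 from Malat1 ASO was 1.07. The low share in Malat1 ASO against Saline turned to 0.86 points with the 25th percentile, and its spread to 0.60 points in nuclei with no neuron marker. The regional difference, the spread, the label score and the marker-free nuclei were chosen after seeing the data. The cause of these changes was not tested. Depth limits the other genes: 132 UMIs of Tfrc could not be tested, and most reactive and interferon genes had too few counts.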
